A study of Mus musculus with 6 samples.

Results

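*Adra1a* encodes the α1A-adrenoreceptor, a receptor for noradrenaline that couples to Gq proteins, releases inositol trisphosphate and raises calcium from internal stores. Astrocytes are a main target of noradrenaline released during arousal and threat, and they carry both α- and β-adrenoreceptors; the β1 receptor, encoded by *Adrb1*, couples instead to Gs proteins and cAMP. A receptor mRNA of low abundance is caught in some of the astrocytes that hold it and missed in others, because droplet sequencing samples only part of the RNA of a cell. Cells in which several *Adra1a* molecules were caught are therefore a selected and deeply sequenced subset.

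The astrocytes examined here came from 3 single-cell libraries of the amygdala of mice labelled as male, wild-type C57BL/6N. Each library pooled several mice tagged with hashtag antibodies. The paper names its wild-type mice C57BL/6NCrSlc and states for its experiments in general that both sexes were used. Tissue was taken 90 min after the behavioural session began, with inhibitors of transcription and translation (actinomycin D, triptolide and anisomycin) present during dissociation, and cells were sorted on the astrocyte surface antigen ACSA-2. The 4 behavioural groups were non-shocked mice (NoFC), fear-conditioned mice (FC), fear-conditioned mice returned to the home cage for 24 h without recall (NoFR) and fear-conditioned mice given recall 24 h after conditioning (FR). An age is not given in the labels. Mice carried no transgene according to the labels, and nothing in the labels ties a library to one behavioural group.

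An astrocyte was a barcode with at least 500 genes, under 6% mitochondrial molecules, at least 20 molecules (unique molecular identifiers, UMIs) of the glutamate transporters *Slc1a2* and *Slc1a3* together and at most 3 of the pericyte genes *Vtn* and *Rgs5*; no hashtag was needed. Of 13546 barcodes, 11103 passed the gene and mitochondrial limits and 8136 were astrocytes by this rule, from 3316, 2340 and 2480 in libraries 1, 2 and 3. Members were the 1345 astrocytes with at least 2 *Adra1a* UMIs, 484, 404 and 457 by library. The libraries held 42350059, 31700569 and 33368825 UMIs in all. Libraries shared between 3 and 8 barcode sequences per pair and members shared 0. Members and the astrocytes they were compared with both had to pass the floor on *Slc1a2* and *Slc1a3*, which the 30 astrocyte core genes leave out. Over the 3 libraries the summed level of these core genes, among them *Atp1b2*, which encodes the ACSA-2 antigen, was 39337, 40967 and 37739 CPM (UMIs of the gene scaled to a common library size, using TMM factors) in members and 39928, 40550 and 40588 CPM in depth-matched astrocytes with 0 *Adra1a* UMIs. None of the 10 endothelial markers was abundant enough to be tested; their UMIs are given with the other cell type markers.

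*Adra1a* itself, on chromosome 14 from 66635251 to 66771168 on the plus strand (GRCm38, GENCODE annotation), spans 135.92 kb and overlaps no other annotated gene. Members were chosen by their *Adra1a* UMIs, and the values in this paragraph are given as a description with no test. Over all astrocytes 5112 cells had 0 *Adra1a* UMIs, 1679 had 1, 704 had 2, 336 had 3, 151 had 4 and 154 had 5 or more, with a highest count of 26 in library 3. Cells just outside the threshold (1 UMI) had a median of 10821 UMIs in total and cells just inside it (2 UMIs) a median of 12143. Members carried 70.5% of the 5682 *Adra1a* UMIs found in astrocytes.

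The share of astrocytes that were members followed depth within every library. Members made up 14.6% of astrocytes in library 1 (95% Wilson interval 13.4 to 15.8), 17.3% in library 2 (15.8 to 18.8) and 18.4% in library 3 (17.0 to 20.0), a mean of 16.8% ± 1.96 (SD, n = 3 libraries). With each library's astrocytes divided into 4 depth classes of equal size, the share in the shallowest class was 5.19%, 7.18% and 7.74%, and in the deepest it was 26.2%, 30.8% and 31.0%. These intervals cover counting error only. After each cell was thinned to 5000 UMIs, which left out 198, 104 and 135 shallower astrocytes, the share was 5.29%, 6.53% and 6.65%. Pericyte barcodes, given for comparison, had at least 20 *Vtn* and *Rgs5* UMIs and at most 3 of the glutamate transporters. They reached the member threshold in 2.16%, 3.69% and 3.24% of barcodes at median depths of 4878, 5234 and 5052 UMIs, and in 2.30%, 3.13% and 2.90% when thinned to the same 5000 UMIs, which left out 440 of 832, 273 of 624 and 333 of 678 pericyte barcodes as too shallow. The thinned astrocyte share lay above the thinned pericyte share in 3 of 3 libraries. This is a description, since the same UMIs chose the members. Whether the *Adra1a* UMIs of pericyte barcodes were free RNA or their own was not tested.

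**Figure D1:**
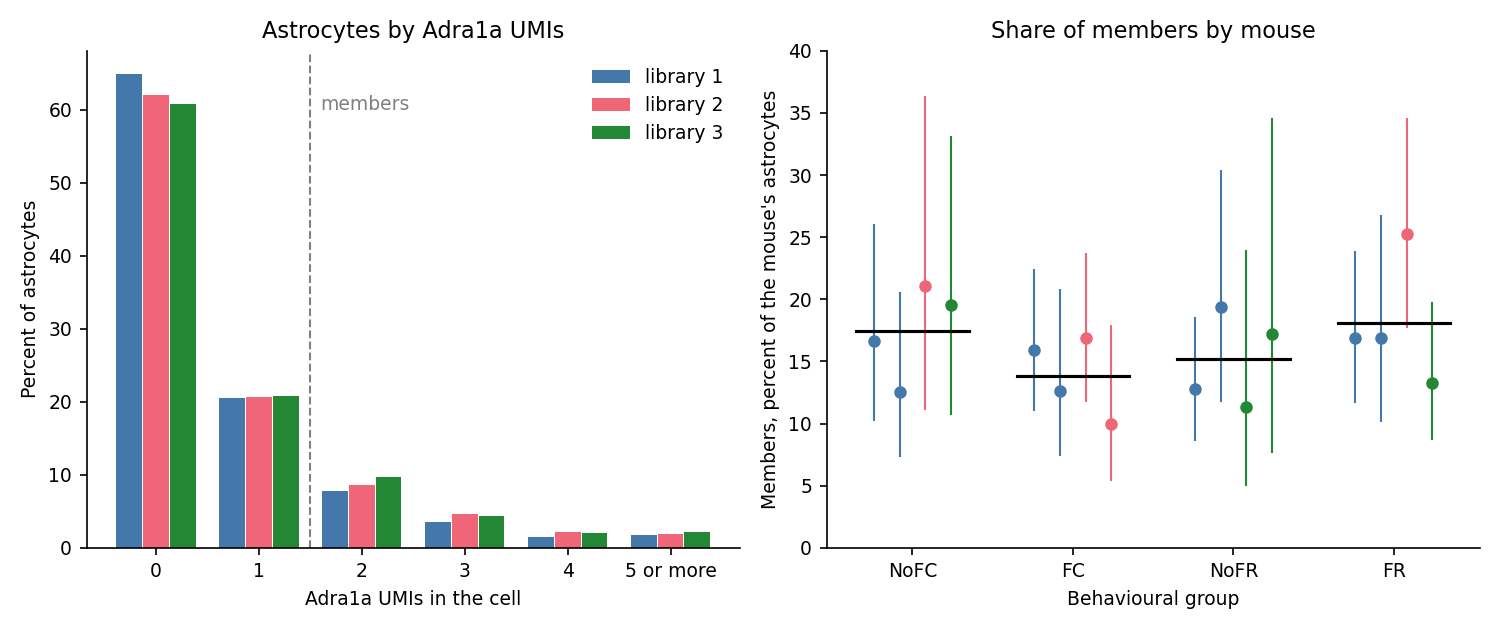
Left, bars give the percent of astrocytes (y axis) in each class of *Adra1a* UMIs (x axis) in 3 libraries; the dashed line marks the member threshold of 2 UMIs. Right, points give the members as a percent of the astrocytes of each of 16 mice by behavioural group, with 95% Wilson intervals as bars, group means as black lines and the library by colour; the 4 groups overlap, with means between 13.9% and 18.1%.

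Whether the share of *Adra1a*-positive astrocytes followed fear learning or recall was asked over mice. Hashtags gave 2408 astrocytes a single mouse tag, of which 1527 belonged to the 16 mice listed with a group, and 240 of these were members. In the 4 NoFC mice members made up between 12.5% and 21.1% of astrocytes (median 18.1%). In the FC mice the share ran from 10.0% to 16.9% (median 14.3%), in the NoFR mice from 11.4% to 19.4% (median 15.0%) and in the FR mice from 13.3% to 25.3% (median 16.9%). The ranges of the 4 groups overlapped. Group means were 17.4% ± 3.77 for NoFC, 13.9% ± 3.15 for FC, 15.2% ± 3.76 for NoFR and 18.1% ± 5.07 for FR (SD, n = 4 mice each). The widest gap, FC against FR, was −4.22 percentage points with a two-sided exact permutation p of 0.171 (adjusted p = 0.651 over 6 pairs), where 4 mice against 4 can reach 0.0286 at best. With hashtags called at a quantile of 0.95 this gap was −0.237 points and no longer the widest. The other 5 pairs had unadjusted exact permutation p-values between 0.229 and 0.8. Within library 1, which held 2 mice of each group, the means were 14.6% for NoFC, 14.3% for FC, 16.1% for NoFR and 16.9% for FR. In that library the FC mice were at 15.9% and 12.6% and both FR mice at 16.9%. Libraries 2 and 3 each lacked one group, NoFR and FC in turn, and held 1 mouse for some of the others. In library 2 the FC mice were at 16.9% and 10.0% and the FR mouse at 25.3%. The permutation did not take the library into account. The mouse with 25.3% was an FR mouse in library 2 with a median depth of 12059 UMIs. Each mouse contributed between 29 and 172 astrocytes.

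To ask which other genes differed in members, the UMIs of 1337 members were summed by library and compared with those of 1337 astrocytes of the same library with 0 *Adra1a* UMIs and matched total UMIs; 8 members had no match within 10%. *Adra1a* was left out. With edgeR's quasi-likelihood test and the library as a block, 12978 genes were tested and 2723 were called at an adjusted p under 0.05, 21% of all tested. Of these, 1167 were higher in members (8.99% of genes tested) and 1556 lower (12%), and 2662 of the called genes had the same sign in 3 of 3 libraries. When library 1 was left out, 1665 genes were called, 632 higher and 1033 lower. DESeq2 on the same sums called 892 genes, all of them among those called by edgeR in the same direction.

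The 15 lowest genes had between 0 and 14 UMIs in all members together and were abundant enough to be tested only through the controls. They were *Igfbpl1*, *Dcx*, *Cd24a*, *Kif23*, *Myt1*, *Pimreg*, *Cdca2*, *Rnf165*, *Hmmr*, *E2f2*, *Fxyd6*, *Ube2c*, *Lockd*, *Neil3* and *Slc38a1*. *Dcx*, a microtubule protein of migrating neuroblasts, had 0 UMIs in the members of every library and 12, 22 and 60 UMIs in the controls of libraries 1, 2 and 3. *Top2a*, a topoisomerase of dividing cells, had 65, 0 and 0 UMIs in members and 568, 410 and 81 in controls. These UMIs sat in few barcodes: the 94 *Dcx* UMIs came from 14 control cells and the 223 *Ube2c* UMIs from 19. Of the 9 cycling and progenitor markers, 8 were tested, 7 were lower and 0 higher, against 12% lower and 8.99% higher over all genes tested. Their median log2 fold change was −3.78, against 0.01 over all genes tested. *Egfr* was the most abundant of them, and the summed level was 345, 313 and 290 CPM in members and 632, 602 and 424 CPM in controls.

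These barcodes met the astrocyte rule but were unlike the rest. Over all astrocytes 57 barcodes, 29, 11 and 17 by library, had at least 5 UMIs of *Sox11*, *Top2a*, *Mki67*, *Cdk1*, *Ube2c* and *Dcx* together; they had a median of 27076 UMIs and 9.46% ribosomal protein UMIs, against 10250.5 UMIs and 1.24% over all astrocytes. Among matched cells 4 members and 35 controls were such barcodes. They are called progenitor barcodes here after the marker list, and a comparison without them was added after the data had been seen. Without them 1317 members and as many controls remained, 12695 genes were tested and 1423 called (11.2%), 519 higher (4.09%) and 904 lower (7.12%). This count fell to 423, 122 higher and 301 lower, when library 1 was left out, and to 744 when library 3 was left out. None of the 15 lowest genes was abundant enough to be tested there, and of the cycling and progenitor markers 2 were tested and 0 called. *Top2a*, *Mki67*, *Cdk1*, *Ube2c* and *Dcx* of that list chose the barcodes left out, so their loss is set by that choice and is no result. Of the genes called with all barcodes, 474 were again called higher and 748 again called lower.

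Ribosomal protein genes fell in members with and without the progenitor barcodes. Of 92 tested, 82 were lower and 0 higher with all barcodes (median −0.72), and 80 were lower and 0 higher without the progenitor barcodes (median −0.34). The shares lower over all genes tested were 12% and 7.12% in turn. Summed over all ribosomal protein genes tested, the level was 10775, 10350 and 9572 CPM in members and 13756, 12471 and 12693 CPM in controls without the progenitor barcodes, so that the 3 member values lay below the 3 control values. *Rps27a*, which encodes a small-subunit protein fused to ubiquitin, was at 179, 153 and 145 CPM in members and 333, 265 and 248 CPM in controls with all barcodes. Its log2 fold change was −0.82 ± 0.046 (SE, adjusted p = 2.47e-12, edgeR) with all barcodes and −0.40 ± 0.053 without the progenitor barcodes. The 13 mitochondrially encoded genes were not called in either direction (median −0.02).

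The metal-binding metallothioneins were lower as well, as were some enzymes of sugar breakdown. All 3 metallothionein genes were called lower with and without the progenitor barcodes, and 0 of 3 once the progenitor barcodes were left out and controls were matched also on the share of ribosomal protein UMIs (ribosomal matching, a comparison described further on): *Mt3*, the brain form, was at 1850, 1973 and 1837 CPM in members and at 2333, 2330 and 2303 CPM in controls (log2 fold change −0.30 ± 0.030, adjusted p = 4.2e-08, edgeR). The groups did not overlap. *Mt1* and *Mt2* both had a log2 fold change of −0.28, that of *Mt1* being 0.0255 when controls were matched on ribosomal share with all barcodes kept. Of 24 genes of glycolysis, glycogen and lactate, 8 were lower (33.3%), 3 higher (12.5%) and 13 not called (median −0.11). Over all genes tested 12% were lower and 8.99% higher. Without the progenitor barcodes 10 were lower (41.7%) and 1 higher (4.17%, median −0.20), against 7.12% and 4.09% of all genes tested. With ribosomal matching 0 of 24 were called (median −0.04). *Gapdh* fell by 0.34 and *Aldoa* by 0.30 on the log2 scale. *Gys1*, which builds glycogen, rose by 0.31 ± 0.079 (adjusted p = 0.00509, edgeR).

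Many genes for receptors and adhesion molecules of synapses were higher in members, and nearly all of these calls were lost with ribosomal matching. Over all genes tested 8.99% were higher with all barcodes, 4.09% without the progenitor barcodes and 0.268% with ribosomal matching. Of 25 glutamate and GABA receptor genes tested, 16 were higher and 0 lower (median 0.21), and without the progenitor barcodes 9 of 23 were higher and 0 lower (median 0.12); with ribosomal matching *Gria1* alone of 23 was higher (median 0.00). *Gria1*, a subunit of AMPA-type glutamate receptors, was at 202, 195 and 223 CPM in members and at 114, 141 and 145 CPM in controls, a log2 fold change of 0.64 ± 0.057 (adjusted p = 5.26e-09, edgeR). *Shisa6*, an auxiliary protein of AMPA receptors, rose by 0.63 ± 0.073. Of 38 synaptic and neural adhesion genes, 26 were higher and 1 lower (median 0.21), and 17 and 1 of 36 without the progenitor barcodes (median 0.14). With ribosomal matching 1 of 37 was higher (*Lrp1b*) and 2 were lower (*Luzp2* and *Thbs4*), with a median of 0.03; *Luzp2* had a log2 fold change of 0.12 with all barcodes, −0.02 without the progenitor barcodes and −0.10 with ribosomal matching. *Lrp1b*, a large receptor of the LDL family, was at 2271, 2414 and 2369 CPM in members and 1704, 1827 and 1937 CPM in controls. *Robo2*, a receptor for Slit guidance cues, rose by 0.36 ± 0.061, but was at −0.0094 in members of exactly 2 UMIs. The *Unc5d* gene was the adhesion gene called lower with all barcodes, and it was not abundant enough to be tested without the progenitor barcodes.

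Of 20 potassium channel and pump genes tested, 11 were higher and 3 lower (median 0.19), 6 and 2 without the progenitor barcodes (median 0.12), and 3 and 0 with ribosomal matching (median 0.09). The shares called higher were 55.0%, 30.0% and 15.0% in turn, against 8.99%, 4.09% and 0.268% of all genes tested. Those called lower were 15.0%, 10.0% and 0%, against 12%, 7.12% and 0.0946%. *Kcnd2*, a pore subunit of A-type potassium channels, was at 1594, 1675 and 1678 CPM in members and 1124, 1193 and 1312 CPM in controls. Every member value exceeded every control value, and the log2 fold change was 0.45 ± 0.033 (adjusted p = 2.18e-10, edgeR). *Kcnd3*, its relative, rose by 0.55 ± 0.107 and *Kcnma1*, the calcium-activated BK channel, by 0.47 ± 0.048. *Atp1b1*, a subunit of the sodium pump, fell by 0.33 on the log2 scale.

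Some genes of the pathways downstream of the receptors were called, and with ribosomal matching almost none. Over all genes tested 8.99% were higher and 12% lower with all barcodes, and 4.09% and 7.12% without the progenitor barcodes. Of 38 genes of Gq, IP3 and calcium store signalling, 17 were higher (44.7%) and 3 lower (7.89%, median 0.17). Without the progenitor barcodes 10 were higher (26.3%) and 2 lower (5.26%, median 0.12), and with ribosomal matching 0 were called (median 0.04). *Itpr1*, an IP3 receptor channel of the calcium store, was at 43.8, 45.0 and 46.7 CPM in members and 28.7, 36.7 and 35.8 CPM in controls (log2 fold change 0.43 ± 0.090, adjusted p = 0.00102, edgeR). *Dgki*, a diacylglycerol kinase, rose by 0.58 ± 0.118. Of 34 cAMP genes, 12 were higher (35.3%) and 4 lower (11.8%, median 0.16), the lower share being near that of all genes. Without the progenitor barcodes 8 were higher (23.5%) and 3 lower (8.82%, median 0.12). With ribosomal matching 1 was higher (*Adcy8*) and 1 lower (*Pde10a*), with a median of 0.03. *Adcy8*, a calcium-stimulated adenylyl cyclase, was at 106, 120 and 120 CPM in members and 69.6, 71.2 and 74.7 CPM in controls (log2 fold change 0.68 ± 0.061, adjusted p = 5.86e-09, edgeR). *Pde10a*, a phosphodiesterase that breaks down cyclic nucleotides, was lower by 0.30 ± 0.074 on the log2 scale (adjusted p = 0.00424, edgeR), with 151, 195 and 99.0 CPM in members and 147, 293 and 122 CPM in controls, so that library 1 did not share the direction. Without library 2 its log2 fold change was −0.13 and no longer called, and with mice as replicates it was 0.51. DESeq2 did not call it with or without the progenitor barcodes, at −0.28 and −0.36. Nor was it called without the library block (−0.33) or without cells holding *Vtn*, *Rgs5* or *Pdgfrb* UMIs (−0.30). With DESeq2, without the block and without those cells the fold change was about as large as with all barcodes. With members of exactly 2 or at least 3 UMIs it was at −0.21 and −0.19, and without hashtag doublets at −0.19, again not called. Of 7 other Gq-coupled receptor genes, *Grm5*, a glutamate receptor, and *Hrh1*, a histamine receptor, were higher, by 0.63 ± 0.121 and 0.35 ± 0.069, and *F2r*, a thrombin receptor, was lower. *Grm5* and *Hrh1* were again higher without the progenitor barcodes, where *F2r* was not called and *Ntsr2*, a neurotensin receptor, was lower, and with ribosomal matching 0 of 7 were called. Of 15 regulators of G protein signalling and arrestins, 5 were higher and 1 lower (median 0.14), 5 and 0 without the progenitor barcodes (median 0.10), and 0 of 15 were called with ribosomal matching. *Rgs6* rose by 0.36 ± 0.038. Of 7 genes of monoamine uptake and breakdown, *Aldh1a1*, a retinaldehyde dehydrogenase, was the one called, at 0.36 ± 0.068; it was again called without the progenitor barcodes, and 0 of 7 were called with ribosomal matching.

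The other adrenoreceptors were not called. Of 8 genes besides *Adra1a*, 3 were abundant enough to be tested and 3 had 0 UMIs in members. *Adrb1* was at 21.4, 27.4 and 23.6 CPM in members and 20.0, 19.7 and 21.3 CPM in controls (log2 fold change 0.24 ± 0.115, adjusted p = 0.161, edgeR), higher in 3 of 3 libraries. *Adra1b*, the other α1 receptor found, had 129 UMIs in members and 131 in controls, and *Adra2a* had 53 and 56. A UMI of *Adrb1* was present in 20.5%, 28.2% and 23.8% of members and in 19.3%, 21.5% and 24% of controls. The mean difference was 2.57 percentage points ± 3.64 (SD, n = 3 libraries), and 0.51 points without library 2. The exact permutation p over signs was 0.5, where 0.25 is the smallest possible. With ribosomal matching the shares were 20.0%, 27.9% and 23.6% of members and 23.2%, 21.9% and 22.5% of controls, so that library 1 was lower in members. A UMI of *Fos*, the immediate early gene used to tag active cells, was present in 3.73%, 3.96% and 4.67% of members and in 2.90%, 5.20% and 4.22% of controls, a mean difference of 0.012 points ± 1.10 (SD, exact permutation p = 1). The *Fos* level had a log2 fold change of −0.13 ± 0.286 and that of *Igfbp2*, an IGF-binding protein, one of −0.04 ± 0.070. Of 11 immediate early genes tested, 3 were lower (*Jund*, *Ier5* and *Btg2*, 27.3% against 12% of all genes tested) and 0 higher. Without the progenitor barcodes *Jund* alone of 10 was lower (10.0% against 7.12% of all genes tested). With ribosomal matching 0 of 9 were called.

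The astrocyte core genes moved both ways. Over all genes tested 8.99% were higher and 12% lower with all barcodes, and 4.09% and 7.12% without the progenitor barcodes. Of 30, 7 were higher and 5 lower (median 0.01), and without the progenitor barcodes 1 was higher and 12 lower (median −0.09); with ribosomal matching 0 were higher and 1 lower (median −0.03). *Slc6a11*, the GABA transporter GAT-3, was the one that was higher with all barcodes and without the progenitor barcodes, by 0.23 ± 0.044 and 0.13 ± 0.041. *S100b*, *Clu*, *Apoe*, *Aldoc* and *Glul* were lower in both, the first 2 of them with log2 fold changes of −0.22 and −0.19 with all barcodes. The water channel *Aqp4* was at 552, 594 and 553 CPM in members and 534, 545 and 565 CPM in controls, which overlapped. Of 32 regional patterning transcription factors, 7 were higher (21.9%) and 4 lower (12.5%, median −0.03), the lower share being near that of all genes. Among 31 tested without the progenitor barcodes 5 were higher (16.1%) and 6 lower (19.4%, median 0.00). With ribosomal matching 0 of 32 were called. *Nkx6-2*, a homeodomain factor, rose by 0.47, but was at −0.13 with every astrocyte with 0 *Adra1a* UMIs as control, at 0.27 and no longer called without library 2, and not called by DESeq2. *Gli2*, a mediator of hedgehog signalling, rose by 0.29, and was at 0.0545 with ribosomal matching (adjusted p = 0.94, edgeR). Of 6 IGF binding proteins and receptors, the receptor *Insr* was higher and *Igfbp5* and *Igfbp7* were lower. When the progenitor barcodes were left out, *Insr* was not called and the other two were again lower, and with ribosomal matching 0 of 6 were called.

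The study sorted its astrocytes into 4 clusters, and the marker lists of these clusters divided the members' genes. The lists were drawn by the study from these same libraries, so they are not independent evidence of a direction. The shares over all genes tested were 8.99% higher and 12% lower, and 4.09% and 7.12% without the progenitor barcodes. With ribosomal matching they were 0.268% and 0.0946%. Of the 20 AST2 genes, 18 were higher and 0 lower in members (median 0.37), and 17 and 0 without the progenitor barcodes (median 0.34). Of the 20 AST4 genes, 14 were higher and 1 lower (median 0.27), 8 and 1 without the progenitor barcodes, and 1 and 2 with ribosomal matching (median 0.03). Of 18 AST1 genes tested, 4 were higher and 1 lower (median 0.12), and 1 and 1 without the progenitor barcodes (median 0.02), while with ribosomal matching 0 of 19 were higher and 2 lower (median −0.02). Of the AST2 genes 5 were higher and 0 lower with ribosomal matching (median 0.16). All 20 AST3 genes, 16 of which encode ribosomal proteins and the others *Mt1*, *Mt3*, *Fabp5* and *Tpt1*, were lower both with (median −0.75) and without the progenitor barcodes (median −0.38). With ribosomal matching 0 of the 20 were called, which for the 16 ribosomal protein genes is set by the matching itself and is no result. Among AST2 genes, *Nav3*, a neuron navigator, rose by 0.70 ± 0.091 (−0.16, not called, with mice as replicates), *Ntrk3*, the neurotrophin-3 receptor, by 0.63 ± 0.079 and *Erbb4*, a neuregulin receptor, by 0.41 ± 0.036.

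**Figure D2:**
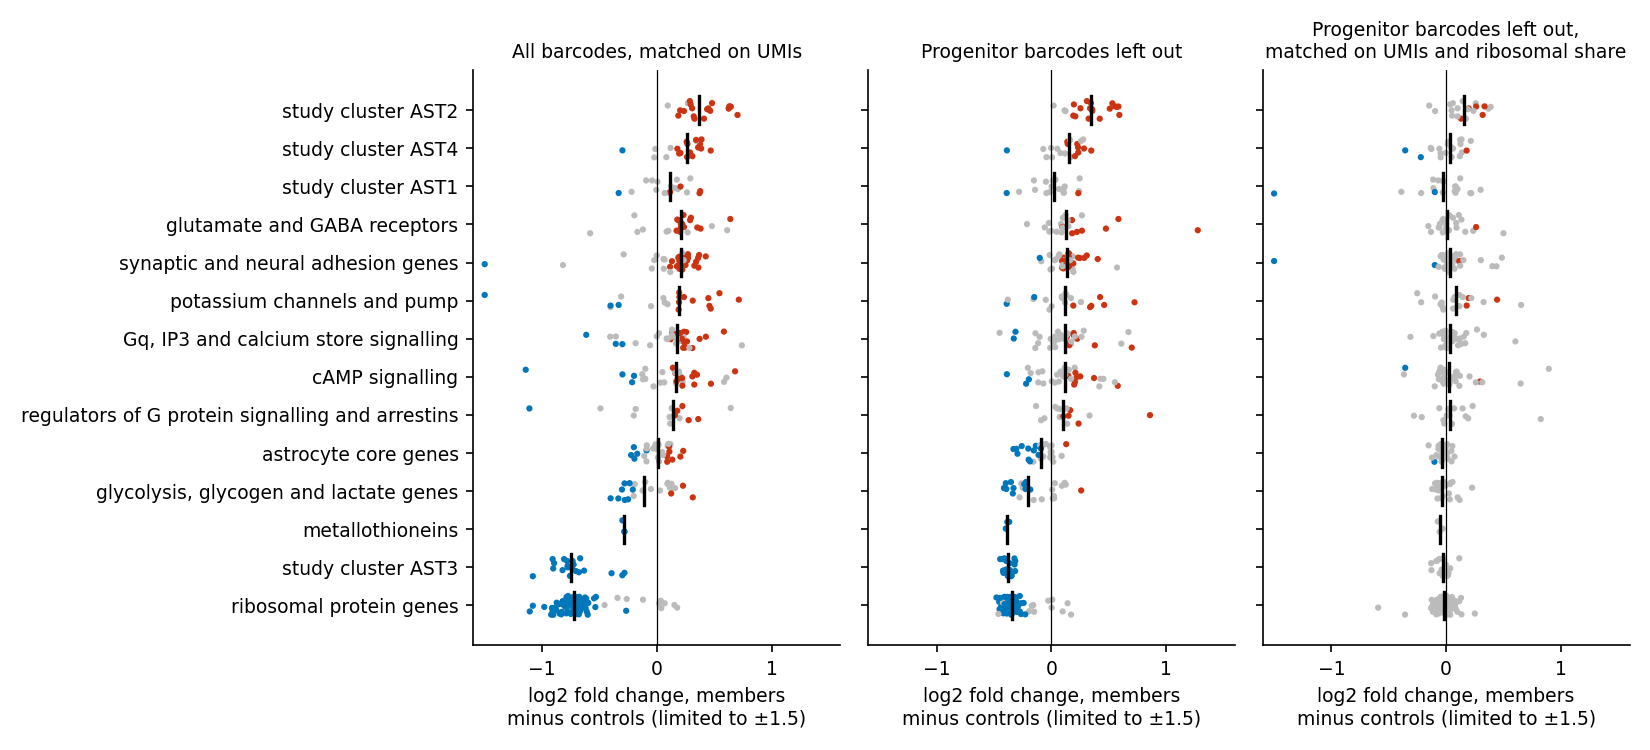
Each point is a gene of the list on the y axis and the x axis gives its log2 fold change in members against controls, with values beyond ±1.5 drawn at the limit; red and blue points were called higher and lower by edgeR, grey points were not called and black bars are medians. In the left and middle panels AST2 genes lie mostly to the right and AST3 and ribosomal protein genes to the left of 0; in the right panel, with controls matched also on ribosomal share, 5 AST2 genes remain called, and the place of the ribosomal protein genes near 0, and of most AST3 genes with them, is set by the matching.

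The direction of a gene followed its length. Over genes other than ribosomal protein genes, those that span under 10 kb of the genome were higher in members in 0.488% and lower in 22.3% of 3073 cases. Genes of 300 kb or more were higher in 55.0% and lower in 7.35% of 449 cases. The median log2 fold change rose from −0.15 in the shortest to 0.19 in the longest class, with −0.04, 0.06 and 0.15 in the classes between. Without the progenitor barcodes the longest class was higher in 40.6% and lower in 0.696% of 431 cases, and with ribosomal matching it was higher in 4.37%. *Adra1a* itself is a long gene, and software of the version named in the file headers counts intronic as well as exonic reads unless told otherwise. The part of unspliced RNA in these differences was not tested, since the files hold no separate intron counts. Of 14 nuclear-retained long noncoding RNAs tested, 6 were higher and 2 lower (median 0.12), 5 and 1 of 13 without the progenitor barcodes (median 0.10), and 2 and 2 of 13 with ribosomal matching (median 0.02). The shares with all barcodes were 42.9% higher and 14.3% lower, against 8.99% and 12% of all genes tested. *Neat1* rose by 0.34 ± 0.058, whereas *Malat1*, the most abundant of them, differed by 0.06 ± 0.020 with all barcodes and by −0.03 ± 0.025 without the progenitor barcodes.

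**Figure D3:**
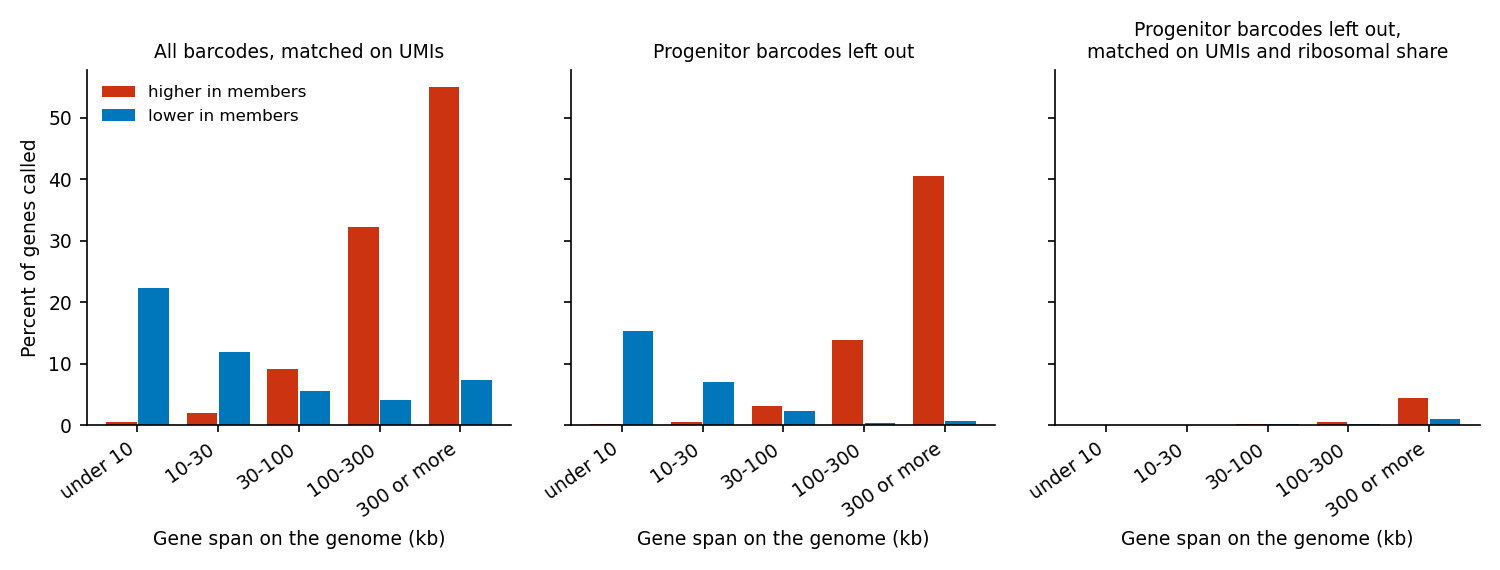
Bars give the percent of genes called higher (red) and lower (blue) in members (y axis) by the span of the gene on the genome in kb (x axis), ribosomal protein genes left out, in 3 versions of the comparison. With all barcodes 55.0% of genes of 300 kb or more were higher and 22.3% of genes under 10 kb lower; with controls matched also on ribosomal share, 4.37% of the longest genes were higher and 0.0336% of the shortest lower.

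Since ribosomal share and gene length moved with *Adra1a*, controls were next matched on both total UMIs and the share of ribosomal protein UMIs, again without the progenitor barcodes. This comparison was also added after the data had been seen. The ribosomal share of members and controls was then 1.07% and 1.10% in library 1, 1.03% and 1.02% in library 2 and 0.969% and 0.975% in library 3. Of 12683 genes 46 were called (0.363%), 34 higher (0.268%) and 12 lower (0.0946%). DESeq2 called 0, with 74 genes at an unadjusted p under 0.05, and without library 1 edgeR called 0, with 639 genes at an unadjusted p under 0.05. Of the 34 that were higher, 28 were also called higher with all barcodes and again without the progenitor barcodes, and 3 of the 12 lower genes were called lower throughout.

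Among these 31 genes were *Kcnd2*, *Kcnd3* and *Kcnma1*, 3 of the 20 potassium channel and pump genes tested. *Gria1*, 1 of 23 glutamate and GABA receptor genes tested, was also among them, as were *Shisa6*, *Erbb4* and *Ntrk3*. *Kcnd2* was at 1578, 1650 and 1659 CPM in members and 1313, 1372 and 1589 CPM in controls, a log2 fold change of 0.20 ± 0.027 (adjusted p = 1.9e-09, edgeR). *Kcnd3* was at 25.7, 47.2 and 42.9 CPM and 19.8, 37.5 and 28.0 CPM (0.44 ± 0.100), and *Kcnma1* was higher by 0.18 ± 0.042. *Shisa6* was higher by 0.34 ± 0.067 and *Gria1* by 0.26 ± 0.047, the latter with 203, 194 and 226 CPM in members and 156, 199 and 168 CPM in controls, so that library 2 did not share its direction. *Erbb4*, *Ntrk3* and *Lrp1b* were higher by 0.13, 0.33 and 0.11. *Adcy8* was higher by 0.29 ± 0.060, with 105, 118 and 120 CPM in members and 93.6, 83.9 and 102 CPM in controls. In the other direction *Pde10a* was lower by 0.36 ± 0.050 (adjusted p = 4.43e-09, edgeR). It was at 154, 189 and 101 CPM in members and 166, 299 and 118 CPM in controls, with the widest gap in library 2. Its UMIs sat in 296 members and 311 controls, and 145 of its 3247 control UMIs came from 1 cell of library 2. *Cst3*, the protease inhibitor cystatin C, was at 7477, 7064 and 6822 CPM and 8255, 7638 and 7109 CPM, a log2 fold change of −0.11 ± 0.022. The secreted chaperone *Clu* was lower by 0.10. None of the adrenoreceptor genes tested was called in this comparison, and 1 of 30 astrocyte core genes was (*Clu*).

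**Figure D4:**
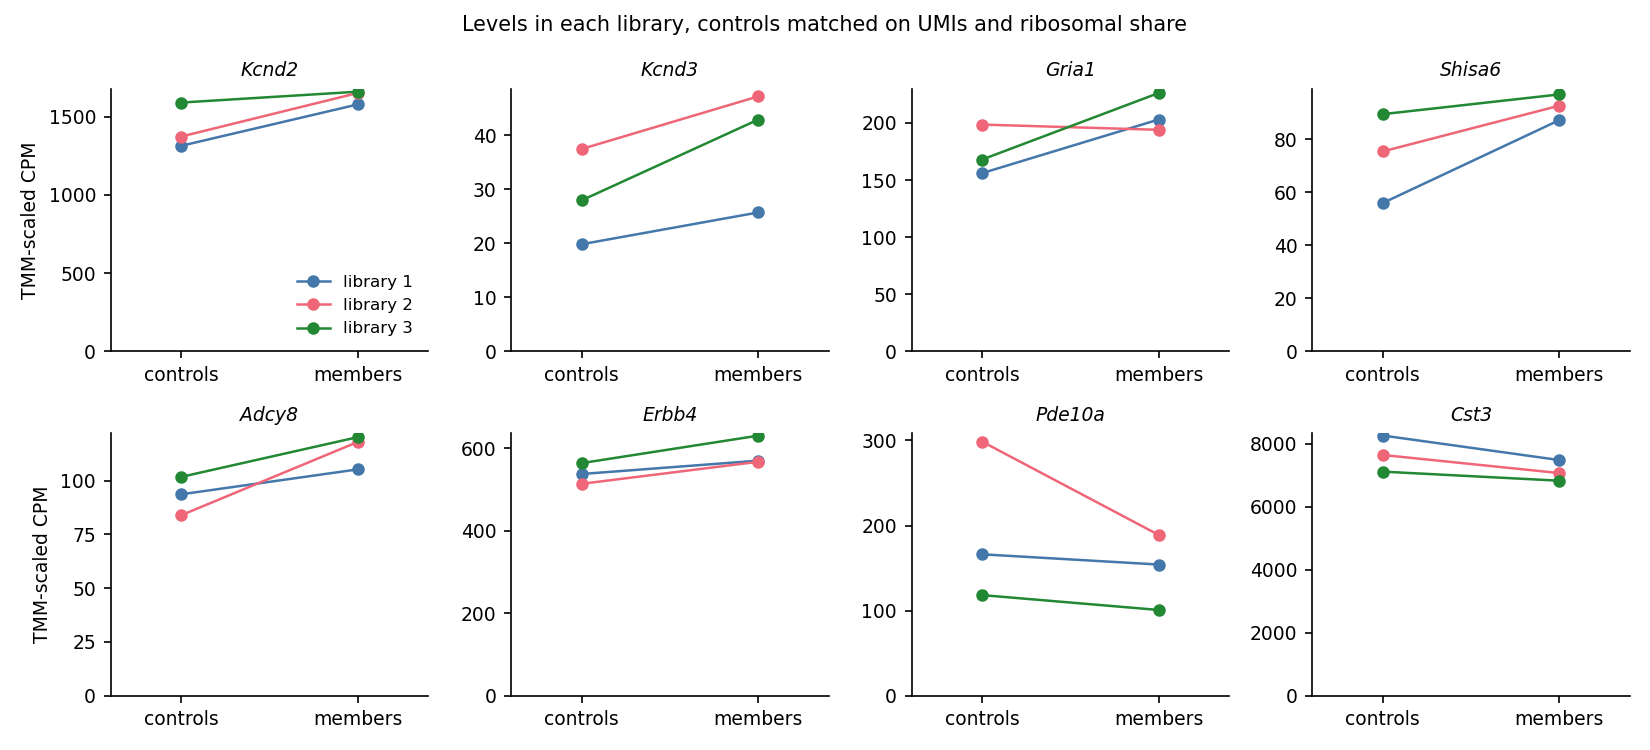
Points give the level in CPM (y axis, scaled by TMM) of 8 genes in controls and members (x axis) of each library, joined by a line per library, with controls matched on UMIs and ribosomal share and progenitor barcodes left out. *Kcnd2* rises and *Pde10a* and *Cst3* fall in 3 of 3 libraries, and *Gria1* rises in libraries 1 and 3.

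Some of the largest changes rested on very few cells. The 15 genes with the largest increase were *Sgcz*, *Chrd*, *Ttn*, *Hs6st3*, *Tlr4*, *Cpne8*, *Gucy2f*, *Arhgap29*, *Bmp6*, *Dnah14*, *Snhg11*, *Colec12*, *Gm42836*, *Neu2* and *Pcdhga9*, of which 12 were called higher without the progenitor barcodes and 4 with controls matched also on ribosomal share. The highest of them, *Sgcz*, a sarcoglycan, had a log2 fold change of 2.42 ± 0.346, but 168 of its 239 UMIs in members came from 1 cell of library 1, and 25 members and 28 controls held a UMI at all. Single cells likewise gave 52 of 250 UMIs of *Bmp6*, 56 of 156 of *Colec12*, 35 of 89 of *Snhg11* and 33 of 74 of *Arhgap29*. *Chrd*, which encodes the BMP antagonist chordin, had 57 UMIs spread over 54 members and 19 UMIs over 18 controls, at most 2 in a cell, and a log2 fold change of 1.59 ± 0.405 (adjusted p = 0.00571, edgeR). *Tlr4*, a pattern-recognition receptor, was found in 70 members and 29 controls. With ribosomal matching *Chrd* was at 0.84 and *Tlr4* at 0.64 on the log2 scale, and neither was called (adjusted p = 0.598 and 0.611, edgeR). *Hs6st3*, a heparan sulfate sulfotransferase, was found in 56 members and 26 controls.

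Astrocytes with exactly 1 *Adra1a* UMI were not members and gave a separate look at the same genes. They were compared with depth-matched astrocytes with 0 UMIs that the comparison above had not used, 1615 against 1615 cells from the same 3 libraries. These controls were not matched on ribosomal share. Without the progenitor barcodes that share was 1.30%, 1.29% and 1.31% in the cells with 1 UMI and 1.45%, 1.39% and 1.39% in controls. Of 12567 genes 110 were called (0.875%), 37 higher (0.294%) and 73 lower (0.581%). The count fell to 13 when library 1 was left out and to 65 when library 2 was left out. Of the 1166 genes higher in members that could be tested, 960 were also higher here and 32 were called, and of 1406 lower genes 1175 were lower and 65 called. The medians were 0.06 and −0.09 here and 0.23 and −0.40 in members. Of the 92 ribosomal protein genes 34 were lower and 0 higher, but without the progenitor barcodes 2 were lower. Without them 28 of 12495 genes were called (0.224%), 15 higher (0.12%) and 13 lower (0.104%). DESeq2 called 3 genes with all barcodes. Of the 31 genes called throughout the member comparisons, 28 had the same sign here and 10 were called, and of the 15 genes with the largest increase in members 12 had the same sign and 0 were called. *Kcnd2* was higher by 0.22 ± 0.030 (adjusted p = 1.62e-08, edgeR), *Erbb4* by 0.23 ± 0.037, *Shisa6* by 0.31 ± 0.070 and *Lrp1b* by 0.16 ± 0.029. *Pde10a* was lower by 0.46 ± 0.052 (adjusted p = 1.06e-12, edgeR). These 5 were called without the progenitor barcodes too. *Gria1* and *Kcnd3* were called with all barcodes (adjusted p = 0.0394 and 0.0469, edgeR) and not without the progenitor barcodes (0.17 and 0.058). *Ntrk3* had a log2 fold change of 0.14 (adjusted p = 0.555, edgeR), *Nav3* of 0.09 and *Clu* of −0.04, and none of these was called. *Adcy8*, at 0.23 (adjusted p = 0.0536), and *Cst3*, at −0.08 (0.0822, edgeR), were not called with all barcodes, and of these 2 *Cst3* was called without the progenitor barcodes (0.0498). *Sgcz* and *Hs6st3* had log2 fold changes of −0.25 and −0.18 and were not called.

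Across classes of *Adra1a* UMIs, with every astrocyte but the progenitor barcodes and no matching, levels of several genes shifted between the class with 0 and that with 4 or more. *Kcnd2* was at 1128, 1152 and 1330 CPM in the cells with 0 *Adra1a* UMIs of libraries 1, 2 and 3, at 1446, 1429 and 1543 CPM in those with 2, and at 1778, 1992 and 1634 CPM in those with 4 or more. *Cst3* went the other way, from 11122, 9963 and 10254 CPM to 5515, 4988 and 5424 CPM in the class with 4 or more. The ribosomal protein genes together made up 1.45%, 1.33% and 1.39% of UMIs at 0 and 0.851%, 0.747% and 0.824% at 4 or more. *Pde10a* showed no such order: it was at 163, 285 and 111 CPM at 0, at 107, 147 and 43.3 CPM at 3 and at 148, 247 and 136 CPM at 4 or more. These classes also differ in depth, from a median of 9560 UMIs at 0 to 15732 at 5 or more, and no test was made across them.

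**Figure D5:**
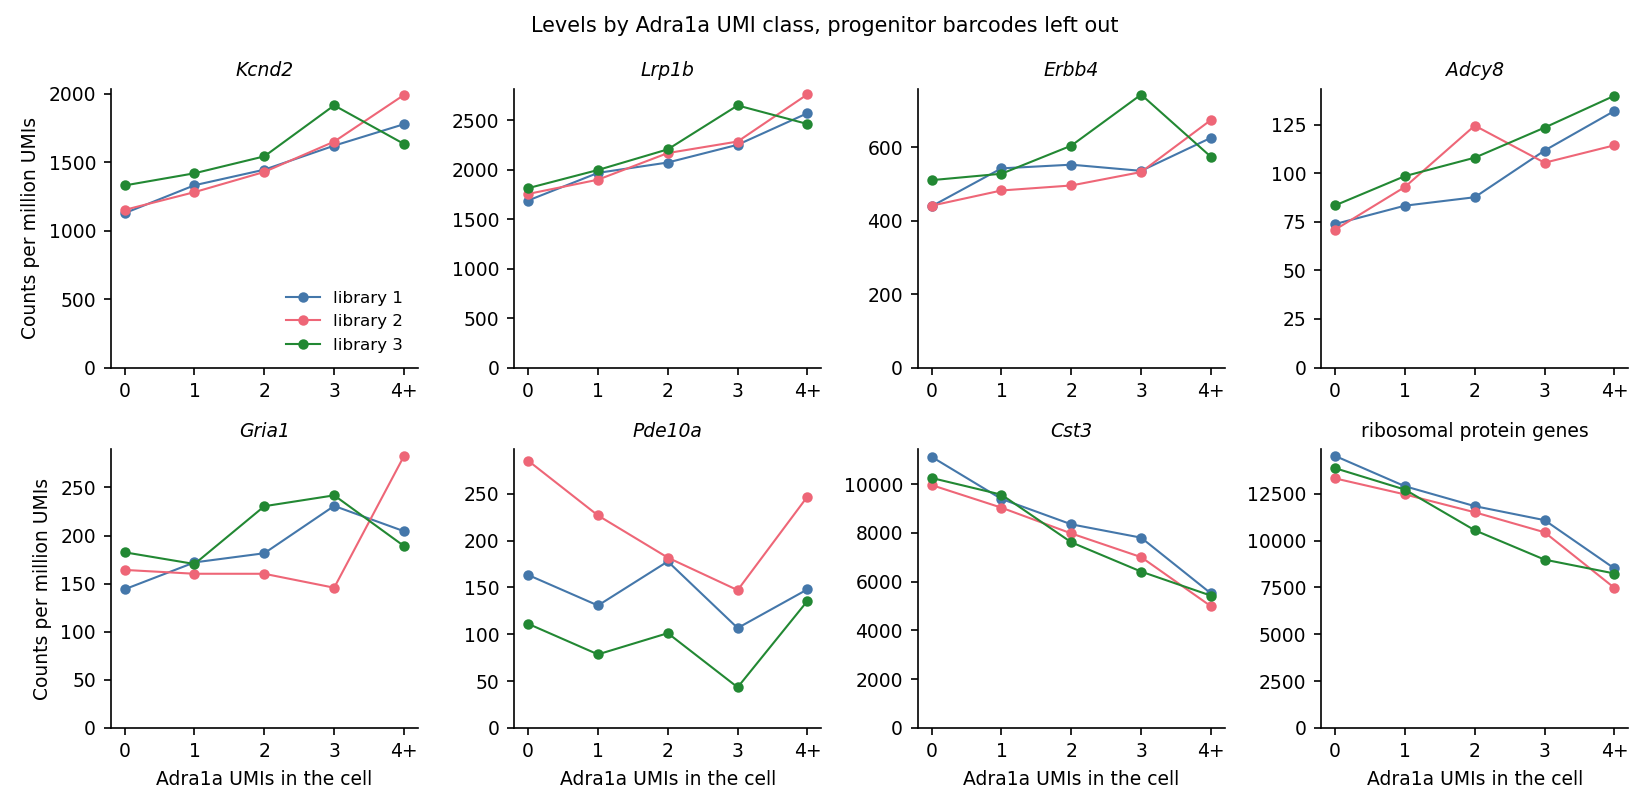
Lines give the level in CPM (y axis, not scaled by TMM) of 7 genes and of the summed ribosomal protein genes by the number of *Adra1a* UMIs in the cell (x axis), one line per library, progenitor barcodes left out. *Kcnd2* and *Lrp1b* rise and *Cst3* and the ribosomal protein genes fall from 0 to 4 or more *Adra1a* UMIs in 3 of 3 libraries, while *Pde10a* has no common order.

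Markers of pericytes, fibroblasts and neurons were called in part, and endothelial UMIs were more numerous in controls. Among all genes tested 8.99% were higher and 12% lower with all barcodes. Of 10 pericyte markers 5 were tested and 2 were higher, *Atp13a5* by 0.49 ± 0.079 and *Notch3* by 0.37 ± 0.086. Both were again called without the progenitor barcodes, and 0 of 5 with ribosomal matching. *Pdgfrb*, the most abundant of the list, differed by 0.10 ± 0.069 (adjusted p = 0.36, edgeR). The summed level of the list was 193, 193 and 215 CPM in members and 166, 148 and 176 CPM in controls. The pericyte markers *Kcnj8*, *Abcc9*, *Higd1b* and *Anpep* had between 3 and 13 UMIs in all members together. When astrocytes with any UMI of *Vtn*, *Rgs5* or *Pdgfrb* were left out, 2116 of 11260 genes were called. Of 3 tested fibroblast and smooth muscle markers, *Pdgfrl* and *Col1a2* were higher, by 0.75 and 0.53; without the progenitor barcodes *Pdgfrl* alone was called, and with ribosomal matching 0 of 3. The list sums were 34.1, 38.7 and 42.2 CPM in members and 21.6, 22.4 and 38.3 CPM in controls. *Pdgfrl* had 281 UMIs in members and 171 in controls, and *Col1a2* had 255 and 182. The oligodendrocyte (3 tested), oligodendrocyte precursor (4), microglia (3) and ependymal (1) markers were not called with all barcodes, whereas without the progenitor barcodes *Cnp* of the first and *Rarres2* of the last were lower, and with ribosomal matching 0 of any of these were called. Of 5 tested neuron markers 1 was higher (*Snhg11*) and 2 lower (*Rbfox3* and *Snap25*), with a median of −0.92. *Rbfox3* had 9 UMIs in members and 158 in controls and was too rare to be tested without the progenitor barcodes, where of 3 neuron markers tested *Snhg11* was higher and 0 were lower (median 0.39); with ribosomal matching 0 of 3 were called. The endothelial markers, of which 0 were tested, had 75 UMIs in members and 252 in controls; *Flt1* had 2 and 65, *Cldn5* 0 and 42 and *Ly6c1* 0 and 26, all but 2 of these control UMIs in library 1. The part of any of these markers in the results was not tested.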

How the data were processed

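The deposited UMI counts per gene and barcode are those the authors made with Cell Ranger on mm10; the submitters' processing notes name version 3.0 and the file headers 7.0.0. The columns of hashtag antibodies sit in the same matrices, and a deposited table (other values) lists hashtag, mouse and group. The sources do not state whether intronic reads were counted. Counts were summed per library and status and tested with edgeR 4.0.16 (TMM, filterByExpr, quasi-likelihood test, library as a block, Benjamini-Hochberg), with DESeq2 1.42.0 as an alternative; SE is the absolute log2 fold change over the root of F. Hashtags were called with Seurat 5.3.0 HTODemux (quantile 0.99), leaving out hashtags under 1% of a library's hashtag UMIs. Doublets were not removed by a caller; leaving out the hashtag doublets, 161 of the members, is an alternative. Libraries pool mice, so p-values measure how the differences between members and controls vary over 3 libraries, with estimates of variation shared across genes. They do not measure the spread between mice or cells. With ribosomal matching *Sgcz* had an adjusted p of 1.915e-27 (edgeR), with 168 of its 239 member UMIs in 1 cell. Named genes were the 15 largest and 15 smallest changes among called genes of one sign in 3 libraries, the called list genes, the adrenoreceptors, *Fos* and *Igfbp2*; some called list genes are not reported here. The members and lists were chosen with earlier results of these data known. On simulated counts for the main comparison (12978 genes), 71% of 100 genes changed by 0.5 and 88% of 100 changed by 1 on the log2 scale were recovered. Gene positions are from GENCODE vM21; spans matched 12973 of 12978 genes.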

Additional observations from a re-analysis of the deposited data

Results flagged for a closer look

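Among members with a single hashtag, 165 carried a hashtag that the deposited hashtag table does not list (23, 55 and 87 in libraries 1, 2 and 3), against 240 with a listed one. They lay outside the comparison of groups, where no mouse or group can be given for them, and they were part of every comparison over libraries.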

How the results depend on the processing

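The number of genes called was 2723 with all barcodes. It was 4206 with every astrocyte with 0 *Adra1a* UMIs as control, 492 with controls matched on UMIs and ribosomal share, 371 with members of exactly 2 UMIs, 892 with DESeq2 and 27 of 2666 with mice as replicates. Without the progenitor barcodes it was 1423 (431 with DESeq2), and 46 with controls also matched on ribosomal share (0 with DESeq2). Leaving out a library gave 1665 to 2193 genes with all barcodes, 423 to 1248 without the progenitor barcodes and 0 to 39 with ribosomal matching. The counts were lowest without library 1 in these 3 comparisons. For cells with 1 UMI the count was 110, with 13 to 109 when a library was left out, 3 with DESeq2 and 28 without the progenitor barcodes. Members and controls of a library share that library, so the pairing comes from the libraries themselves; without this replicate block 1782 genes were called, 613 higher and 1169 lower. The alternatives that leave out the progenitor barcodes were chosen after seeing the data.

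The mean share of members was 6.16% after thinning, 37.4% with at least 1 UMI, 8.01% with at least 3 and 14.2% without cells holding *Vtn*, *Rgs5* or *Pdgfrb* UMIs, and 15.9% to 17.8% when a library was left out. At a hashtag quantile of 0.95 NoFC minus NoFR was −2.43, NoFR minus FR 2.22, NoFC minus FC 0.0245 and FC minus FR −0.237 percentage points. Leaving out a mouse gave −5.82 to −1.83 points for FC minus FR, −2.23 to 1.76 for NoFC minus FR and −2.62 to 0.063 for FC minus NoFR. The *Adrb1* difference was −0.444 points without cells holding the 3 pericyte genes and 0.51 to 3.96 when a library was left out. That of *Fos* was −0.0776 when matched on genes detected, −1.18 with at least 3 UMIs, −0.296 without hashtag doublets, −0.231 without the progenitor barcodes and −0.397 to 0.636 when a library was left out.

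Of 46 genes whose fold change is given, 0 changed sign with RLE size factors, DESeq2 on all barcodes, no filter on low counts or no replicate block, though of the 42 called genes among them 14 with DESeq2 and 7 without the block were no longer called. With members of exactly 2 UMIs 31 of 41 called genes were no longer called, with mice as replicates 24 of the 27 that could be tested, with controls matched on ribosomal share 23 of 42, and 25 of 42 when the progenitor barcodes were left out as well. With every cell with 0 *Adra1a* UMIs as control the log2 fold change was 0.0578 for *Igfbp2*, −0.13 for *Nkx6-2*, 0.0025 for *Fos* and −0.0266 for *Malat1*. With controls matched on ribosomal share it was 0.039 for *Igfbp2*, 0.0255 for *Mt1*, −0.0301 for *Luzp2* and −0.0092 for *Malat1*, and, without the progenitor barcodes too, −0.0438 for *Pdgfrb*, −0.0992 for *Luzp2* and −0.0507 for *Malat1*. Without the progenitor barcodes *Malat1* was at −0.0259 (−0.0155 with DESeq2) and *Luzp2* at −0.0156 (−0.0052 with DESeq2). With members of at least 1 UMI *Igfbp2* was at 0.026. With exactly 2 UMIs the values were 0.19 for *Igfbp2*, 0.39 for *Fos* and −0.0094 for *Robo2*. Without hashtag doublets *Igfbp2* was at 0.0731, and without cells holding the 3 pericyte genes *Fos* was at 0.33. With mice as replicates *Nav3* was at −0.16, *Pde10a* at 0.51, *Pdgfrb* at −0.22 and *Malat1* at −0.0906. Leaving out a library gave −0.111 to 0.0642 for *Igfbp2* and −0.276 to 0.105 for *Fos*. The cause of these changes was not tested.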
